A study of Mus musculus with 6 samples.

Results

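Transport across the brain endothelium through vesicles was examined with 8 genes, *Cav1*, *Cav2*, *Plvap*, *Mfsd2a*, *Tfrc*, *Insr*, *Lrp1* and *Ager*, chosen by name among the 23183 gene symbols measured. Cerebral microvessels were isolated from WT mice (TEK-cre, Crif1+/+) and from TEKCRIF1 KO mice (TEK-cre, Crif1 flox/flox), in which Cre deletes *Crif1* (also known as *Gadd45gip1*) in Tek-expressing cells. *Crif1* is needed for mitochondrial oxidative phosphorylation. Both groups carried the TEK-cre transgene, were untreated and were given the strain name C57BL/6, and each held 3 libraries. The Tek promoter is active in endothelial cells and also in part of the blood cell lineage. The libraries of a group came from separate mice, whose age was not given in the sources used here.

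Endothelial cells of the blood-brain barrier carry few transport vesicles compared with endothelium elsewhere. Caveolae, small flask-shaped pits of the plasma membrane coated by caveolins, take up plasma without a receptor, and the lipid transporter encoded by *Mfsd2a* holds their formation down. Clathrin-coated pits instead gather receptors that carry named cargo such as iron-loaded transferrin, insulin or apolipoprotein E particles into or across the cell.

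Levels are in FPKM, fragments per kilobase of transcript scaled to the number of fragments sequenced, which allows genes of unequal length to be compared. A log2 fold change is the KO mean minus the WT mean of log2(FPKM + 1), which understates the change of genes with low values. Genes averaging 1 FPKM or more over the 6 libraries were tested, 14247 in all, and the Benjamini-Hochberg adjustment of the limma p-values covered this whole set. All 8 transcytosis genes passed that filter.

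As a check of the labels, the targeted gene *Gadd45gip1* was measured at 18.8, 15.3 and 16.5 FPKM in WT 1 to 3 and at 10.8, 7.54 and 10.4 FPKM in KO 1 to 3. Each KO library lay below each WT library, with a log2 fold change of -0.77 (SE 0.22, limma p = 0.00534, adjusted p = 0.841, exact permutation p = 0.1, the smallest that 3 libraries per group allow). Depth estimated from the steps between low FPKM values was 6400000 to 11700000 fragments per library, lowest in KO 2. The microvessel label was checked with endothelial markers, all 15 of which were detected, *Cldn5* being the most abundant. Their summed level was 1320 to 1790 FPKM in WT and 1210 to 1610 FPKM in KO. Of the 15, 9 had negative log2 fold changes (median -0.12). Only *Cdh5* had all KO values below WT, whereas 2 markers had all KO values above WT. *Cdh5* measured 86.7, 92.4 and 91.3 FPKM in WT and 50.8, 42.5 and 38.1 FPKM in KO. Its log2 fold change was -1.03 (exact permutation p = 0.1). Markers of pericytes, smooth muscle, astrocytes, microglia, neurons, oligodendrocytes, fibroblasts, erythroid cells and choroid plexus were present too, and no measured marker was at 0 in all 6 libraries. In such bulk tissue, fewer cells of a type and less RNA per cell cannot be told apart.

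No gene of the whole table passed an adjusted p of 0.05 (0 of 14247, 0%), so none of the transcytosis genes did. At an unadjusted p under 0.05, 838 genes were found (5.88%), and 1 of the 8 transcytosis genes, *Lrp1*, was among them. *Lrp1* was also the only one of the 8 whose WT and KO values did not overlap, against 11.1% of all tested genes. Of the 8 log2 fold changes, 4 were above 0 and 4 below, with a median of 0.02 beside -0.01 over all tested genes.

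**Figure D1:**
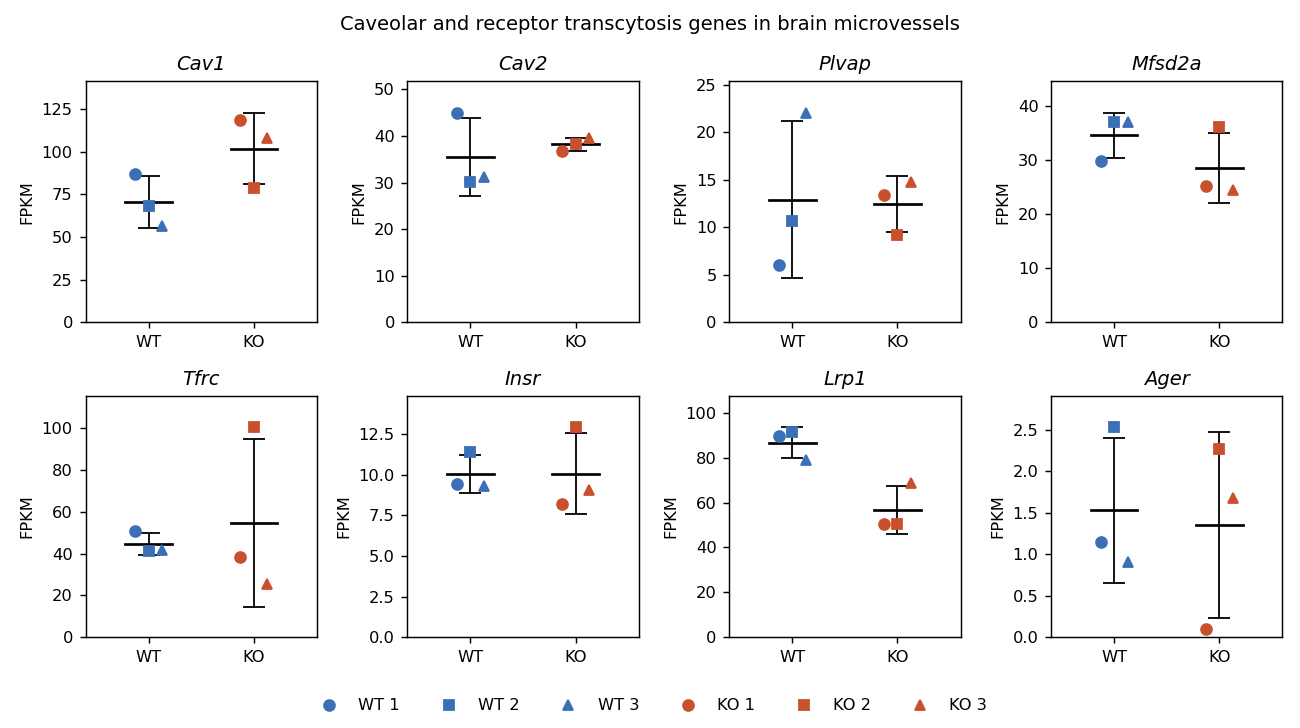
FPKM of the 8 transcytosis genes in the 3 WT and 3 KO libraries, one panel per gene, with points for libraries and a bar for the group mean ± SD. *Lrp1* is the only gene whose KO points (50.3 to 68.9 FPKM) all lie below its WT points (78.9 to 91.4 FPKM), and *Tfrc* has 1 KO library at 100 FPKM.

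Caveolin-1, the protein that drives the membrane of a caveola to curve, is encoded by *Cav1* (ENSMUSG00000007655.16, chr6:17306335-17341452 on the plus strand of GRCm38). *Cav1* measured 87.0, 68.1 and 56.4 FPKM in WT 1 to 3 and 119, 78.5 and 108 FPKM in KO 1 to 3. Every WT library was exceeded by KO 1 and KO 3, whereas KO 2 lay below WT 1, so the groups overlapped. The means were 70.5 ± 15.4 FPKM in WT and 102 ± 20.9 FPKM in KO (SD, n = 3 each). The log2 fold change was 0.52 (SE 0.24, 95% confidence interval -0.01 to 1.06, limma p = 0.0532, adjusted p = 0.841, exact permutation p = 0.2), a fold of 1.44 with an interval of 0.994 to 2.08 on the FPKM + 1 scale. Without KO 2 the log2 fold change was 0.70 and without WT 1 it was 0.69, both at an unadjusted limma p under 0.05, whereas without WT 3 it was 0.38.

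Caveolin-2, which assembles with caveolin-1, is encoded by the neighbouring gene *Cav2* (ENSMUSG00000000058.6, chr6:17281185-17289115, plus strand). Only 17219 bases separate *Cav2* from *Cav1*, and both overlap Gm15581, an antisense gene whose reads cannot be told apart from theirs if the counting, which was not described, ignored strand. *Cav2* measured 45.1, 30.1 and 31.1 FPKM in WT and 36.9, 38.3 and 39.6 FPKM in KO. All 3 KO values lay between the highest and the lowest WT values. The means were 35.4 ± 8.35 FPKM and 38.3 ± 1.37 FPKM, and the log2 fold change was 0.13 (SE 0.21, 95% confidence interval -0.34 to 0.60, limma p = 0.547, adjusted p = 0.952, exact permutation p = 0.4).

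*Cav2* was thus less abundant than *Cav1* in all 6 libraries. The ratio of *Cav2* to *Cav1* was 0.518, 0.443 and 0.551 in WT and 0.311, 0.488 and 0.367 in KO. The lowest ratios were those of KO 1 and KO 3, and KO 2 lay inside the WT range. This ratio and the other ratios below were picked after the values were seen and were not tested.

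*Plvap* (ENSMUSG00000034845.6, chr8:71497765-71511752, minus strand) encodes the protein of the diaphragm that spans caveolae and fenestrae and is scarce in mature barrier vessels. *Plvap* measured 5.99, 10.6 and 22.1 FPKM in WT and 13.4, 9.20 and 14.8 FPKM in KO. The WT libraries spread more widely than the KO libraries, all of which lay inside the WT range. The log2 fold change was 0.10 (SE 0.39, 95% confidence interval -0.76 to 0.97, limma p = 0.8, adjusted p = 0.981, exact permutation p = 1.0). On the FPKM scale the order of the means was the opposite, with 12.9 ± 8.29 FPKM in WT and 12.5 ± 2.91 FPKM in KO. Leaving out WT 1 gave a log2 fold change of -0.31, and leaving out WT 3 gave 0.55. The gene overlaps *Gtpbp3* on the opposite strand, with the same limit on reads as for *Cav1*.

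Choroid plexus vessels are fenestrated and carry the *Plvap* protein, and choroid plexus markers differed widely among the libraries. Their summed level was 3480, 3060 and 3030 FPKM in WT and 9210, 3100 and 11100 FPKM in KO. All 10 of these markers had positive log2 fold changes, 4 of them at an unadjusted limma p under 0.05, and *Ttr*, the most abundant, reached 8262 FPKM in KO 1 and 9787 FPKM in KO 3. The same 2 libraries held the higher *Plvap* and *Cav1* values of the KO group. Smooth muscle cells also make *Cav1*, and their markers summed to 891, 419 and 434 FPKM in WT and 1120, 437 and 620 FPKM in KO, highest in WT 1 within WT and lowest in KO 2 within KO, as *Cav1* was. The part of choroid plexus tissue in the *Plvap* and *Cav1* values, and that of smooth muscle in *Cav1*, was not tested.

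*Mfsd2a* (ENSMUSG00000028655.11, chr4:122946850-122961188, minus strand) encodes the lysophosphatidylcholine transporter that brings docosahexaenoic acid into the brain and restrains caveolar transcytosis. *Mfsd2a* measured 29.8, 37.0 and 37.0 FPKM in WT and 25.1, 36.0 and 24.4 FPKM in KO. The lowest libraries were KO 1 and KO 3, and KO 2 lay within the WT range. The means were 34.6 ± 4.17 FPKM and 28.5 ± 6.51 FPKM, with a log2 fold change of -0.28 (SE 0.22, 95% confidence interval -0.77 to 0.20, limma p = 0.22, adjusted p = 0.877, exact permutation p = 0.2). The log2 fold change was -0.46 without KO 2, at an unadjusted limma p under 0.05, -0.19 without KO 3 and -0.17 when centred on the endothelial markers.

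Across libraries, high *Cav1* went with low *Mfsd2a*. Pearson's r was -0.93 over the 6 libraries (exact permutation p = 0.00833, adjusted over the 28 pairs of transcytosis genes 0.233), and Spearman's rho was -0.89 (exact permutation p = 0.0333). Without WT 3 and KO 1, the libraries farthest from the median of *Cav1*, r was -0.97. Within the groups only the extreme libraries followed this: KO 2 had the lowest *Cav1* and the highest *Mfsd2a* of KO, and WT 1 had the highest *Cav1* and the lowest *Mfsd2a* of WT, whereas the remaining libraries of each group did not run inversely. With 3 libraries each, no correlation within a group was computed. The pair was the most strongly related of the 28, and its adjusted p did not pass 0.05. By comparison, *Cav1* and *Cav2* gave an r of 0.62 (exact permutation p = 0.188).

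**Figure D2:**
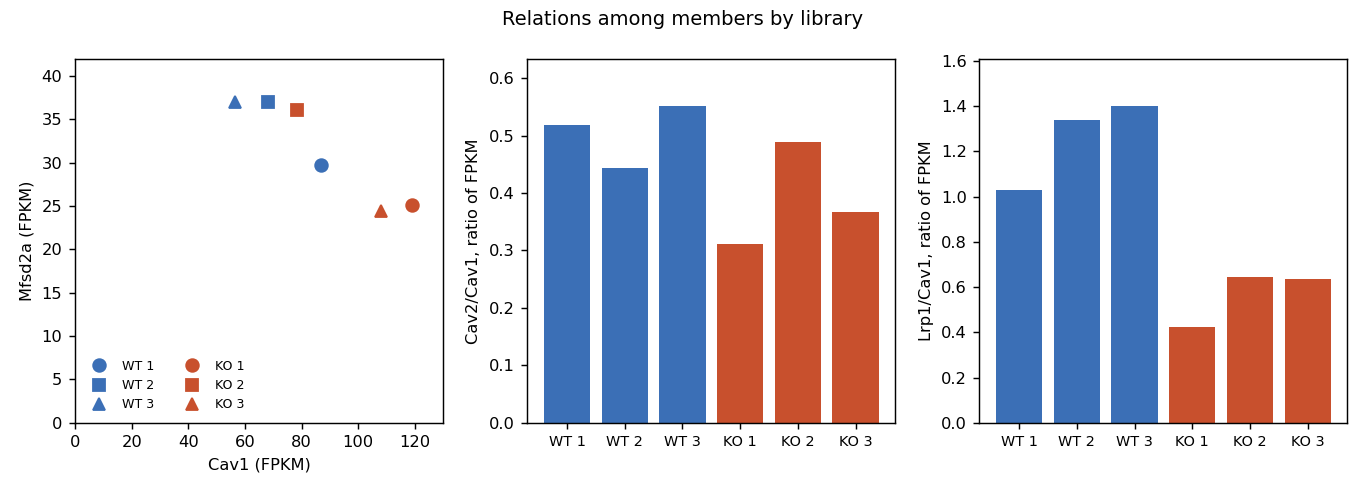
Left, *Mfsd2a* against *Cav1* in FPKM, one point per library; middle and right, the ratio of *Cav2* to *Cav1* and of *Lrp1* to *Cav1* in each library as bars from 0. The KO 2 point lies among the WT points in the left panel, and the 3 *Lrp1* to *Cav1* ratios of KO (0.424 to 0.643) lie below the 3 of WT (1.03 to 1.40).

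*Lrp1* (ENSMUSG00000040249.15, chr10:127538161-127621148, minus strand) encodes a very large endocytic receptor of the lipoprotein receptor family that binds apolipoprotein E, alpha-2-macroglobulin and amyloid beta and carries amyloid beta out of the brain. The longest annotated transcript has 89 exons and 14888 bases, which gave 4808 to 15202 estimated fragments per library. *Lrp1* measured 89.8, 91.4 and 78.9 FPKM in WT and 50.3, 50.4 and 68.9 FPKM in KO. Every KO value lay below every WT value, an order shown by 5.7% of all tested genes, and KO 3 was the closest to WT. The means were 86.7 ± 6.77 FPKM and 56.6 ± 10.7 FPKM, with a log2 fold change of -0.62 (SE 0.20, 95% confidence interval -1.07 to -0.17, fold 0.65). The limma p was 0.0124 before adjustment and 0.841 after it, and the exact permutation test gave p = 0.1, the smallest that the design allows. Of all tested genes, 3.11% were lower in KO at an unadjusted limma p under 0.05.

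The *Lrp1* difference was smaller after a joint correction for GC content and transcript length. With that correction, made within each library, the log2 fold change was -0.42, no longer at an unadjusted limma p under 0.05, and the groups overlapped, with values of 6.56, 6.36 and 6.14 in WT and 5.88, 5.53 and 6.38 in KO on the log2 scale. Without WT 2 and with no such correction it was -0.58, just short of an unadjusted limma p of 0.05. The gene overlaps the antisense gene Gm16217.

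Pericytes, smooth muscle, astrocytes, microglia, neurons and fibroblasts also make *Lrp1*, and their markers did not all lean the same way. Astrocyte markers summed to 897, 723 and 778 FPKM in WT and to 578, 595 and 599 FPKM in KO, without overlap, and 9 of 10 had negative log2 fold changes, 3 of them at an unadjusted limma p under 0.05. Fibroblast markers summed to 2320 to 3560 FPKM in WT and 1780 to 2450 FPKM in KO, and all 9 tested were negative. Microglia and macrophage markers summed to 251 to 320 FPKM in WT and 201 to 250 FPKM in KO (9 of 10 negative), and pericyte markers to 879 to 1390 FPKM and 913 to 1050 FPKM (8 of 10 negative). Neuron markers summed to 402 to 752 FPKM in WT and 266 to 578 FPKM in KO (8 of 10 negative). Markers of oligodendrocytes, not named above, summed to 467 to 597 FPKM in WT and 274 to 505 FPKM in KO (8 of 10 negative). Smooth muscle markers leaned the other way, with 1 of 8 negative and a median log2 fold change of 0.31. The part of these cells in the *Lrp1* values was not tested.

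**Figure D3:**
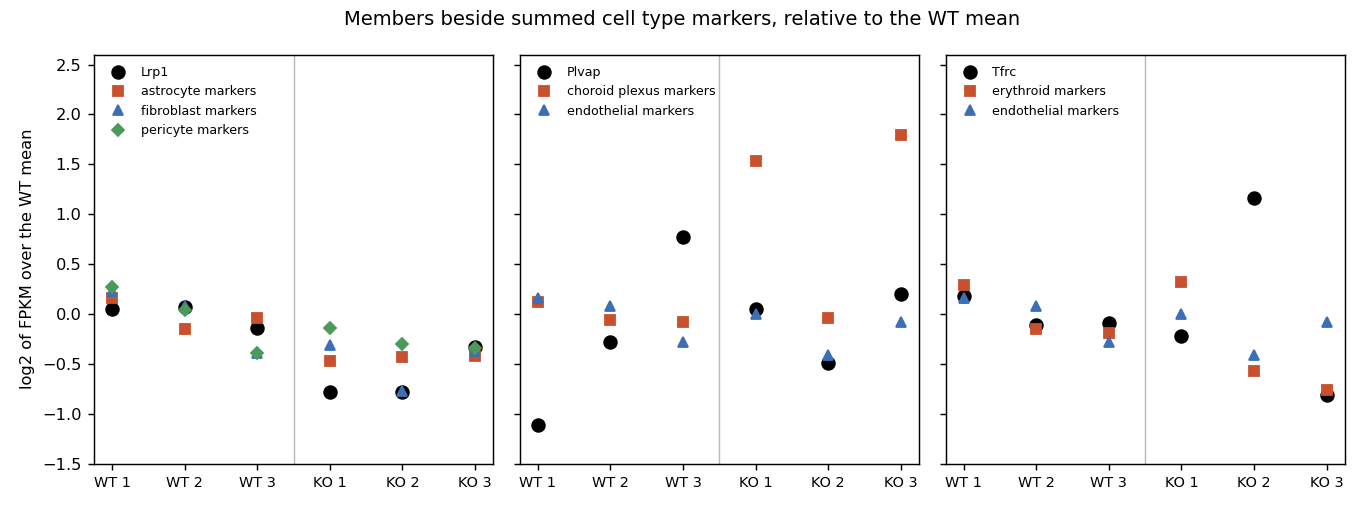
*Lrp1*, *Plvap* and *Tfrc* (black circles) beside the summed FPKM of cell type markers (coloured symbols), as log2 of the value over the WT mean, in each of the 6 libraries. *Lrp1* and the astrocyte marker sum (578 to 599 FPKM in KO, 723 to 897 FPKM in WT) are both low in all 3 KO libraries, the choroid plexus sum is high in KO 1 and KO 3, and *Tfrc* is high in KO 2, where the erythroid sum is 1910 FPKM.

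*Tfrc* (ENSMUSG00000022797.16, chr16:32608920-32632794, plus strand) encodes the transferrin receptor, the main route of iron into brain endothelium. Its mRNA is a classic case of control through iron-responsive elements, short hairpins bound by iron regulatory proteins when iron is scarce, which protect the message when they lie behind the coding sequence and block translation when they lie before it. A search for the hairpin pattern, a C followed by 5 bases, the loop CAGTGN with N other than G, and 5 bases pairing with the first 5 in at least 4 places (G with T allowed), found 4 matches in the 3′UTR of *Tfrc*. They are shown with the match in the 3′UTR of *Slc11a2*, the iron importer of endosomes, and with the 5′UTR matches in the ferritin chains *Fth1* and *Ftl1* and the iron exporter *Slc40a1*, because the iron genes with a match are set beside *Tfrc* in the values that follow. Sequences are from GENCODE M21 transcripts (GRCm38), 5′ to 3′ on the transcript strand as DNA, with the loop in capitals.

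Tfrc 3′UTR, chr16:32631221-32631245, plus strand: ttatcggaagCAGTGCcttccataa
Tfrc 3′UTR, chr16:32631600-32631624, plus strand: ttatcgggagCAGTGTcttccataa
Tfrc 3′UTR, chr16:32631665-32631689, plus strand: atatcggagaCAGTGAtctccatat
Tfrc 3′UTR, chr16:32631712-32631736, plus strand: ttatcgggaaCAGTGTttcccataa
Slc11a2 3′UTR, chr15:100395155-100395179, minus strand: ccatcagagcCAGTGTgtttctatg
Fth1 5′UTR, chr19:9982734-9982758, plus strand: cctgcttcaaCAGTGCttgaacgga
Ftl1 5′UTR, chr7:45459781-45459805, minus strand: cttgcttcaaCAGTGTttgaacgga
Slc40a1 5′UTR, chr1:45925467-45925491, minus strand: acttcagctaCAGTGTtagctaagt

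The *Tfrc* matches started 889, 1268, 1333 and 1380 bases after the stop codon, and each paired at all 5 places. At least 1 match was present in 3.11% of 21021 annotated 3′UTRs and in 0.473% of 20704 5′UTRs, whereas only 24 3′UTRs (0.114%) held 2 or more and no other held as many as *Tfrc*. Among the 19 genes of iron handling, no others held a match in a UTR. A match describes the letters and does not show that a protein bound there.

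*Tfrc* measured 50.9, 41.3 and 42 FPKM in WT and 38.3, 100 and 25.4 FPKM in KO. KO 2 was 1.97 times the next highest library, whereas KO 1 and KO 3 (mean 31.9 FPKM) lay below every WT library, so the KO libraries fell on both sides of WT. The means were 44.7 ± 5.34 FPKM and 54.7 ± 40.1 FPKM, with a log2 fold change of 0.05 (SE 0.41, 95% confidence interval -0.86 to 0.96, limma p = 0.899, adjusted p = 0.992, exact permutation p = 1.0). Leaving out KO 2 gave a log2 fold change of -0.50, at an unadjusted limma p under 0.05. Of all tested genes, 127 (0.891%) had KO 2 at least as far above the next highest library, and KO 2 was the highest library for 21.3%.

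KO 2 lay at one end of the range for 3 of the other 4 genes with iron-responsive matches, as it did for 46.3% of all tested genes. *Slc11a2* measured 9.18, 9.07 and 8.53 FPKM in WT and 9.81, 14.1 and 9.71 FPKM in KO, all KO libraries lying above WT (exact permutation p = 0.1, limma p = 0.236). *Fth1*, the heavy chain of the iron store ferritin, measured 1487, 1730 and 1448 FPKM in WT and 1658, 1068 and 1619 FPKM in KO, and the light chain *Ftl1* measured 772, 977 and 823 FPKM in WT and 796, 629 and 939 FPKM in KO. KO 2 was thus the highest library for *Tfrc* and *Slc11a2* and the lowest for both ferritin chains. After GC content and length correction the log2 level of *Ftl1* in KO 2 was 9.56, above that in KO 1 at 9.47, while *Fth1* stayed lowest there at 10.18. *Slc40a1* measured 38.9 FPKM in KO 2, inside the range of 28.4 to 39.5 FPKM of the other libraries. The iron regulatory proteins themselves, which hold no match, lay on opposite sides in KO 2. *Ireb2* measured 22.5 FPKM there, above the 12.2 to 16.2 FPKM of the other libraries (4.22 against up to 4.16 on the log2 scale after the correction), and *Aco1* measured 12.7 FPKM there, below the 18.7 to 28.3 FPKM of the others. KO 2 was singled out after its *Tfrc* value was seen, so this is a description of 1 library.

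Young red blood cells are rich in *Tfrc*, and the erythroid markers were mixed in KO 2. Their sum, set mainly by the haemoglobin genes, was 3480, 2550 and 2480 FPKM in WT and 3550, 1910 and 1680 FPKM in KO. *Alas2*, the first enzyme of haem synthesis in red cells, measured 99.7 FPKM in KO 2, below the 108 to 210 FPKM of WT. *Klf1*, a transcription factor of young erythroid cells, was listed at 0 in all 3 WT libraries and measured 0.175, 1.71 and 0.294 FPKM in KO 1 to 3, highest in KO 2. The part of erythroid cells in the *Tfrc* value was not tested.

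*Insr* (ENSMUSG00000005534.10, chr8:3122061-3279617, minus strand) encodes the insulin receptor, which binds insulin at the vessel wall. *Insr* measured 9.43, 11.4 and 9.32 FPKM in WT and 8.22, 12.9 and 9.07 FPKM in KO. KO 2 was the highest and the other 2 KO libraries were the lowest, the same arrangement as for *Tfrc* on a smaller scale. The SD was 1.16 FPKM in WT and 2.5 FPKM in KO, and the log2 fold change was -0.02 (SE 0.23, 95% confidence interval -0.53 to 0.50, limma p = 0.949, adjusted p = 0.994, exact permutation p = 0.9).

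*Ager* (ENSMUSG00000015452.14, chr17:34597862-34600936, plus strand) encodes RAGE, a receptor for glycated proteins, S100 proteins and amyloid beta that is known to carry amyloid beta in the direction opposite to LRP1. *Ager* had the lowest level of the 8 genes, at 1.14, 2.53 and 0.911 FPKM in WT and 0.103, 2.26 and 1.68 FPKM in KO. The values rest on about 24.4, 41.7 and 19.5 estimated fragments in WT and 1.53, 27.2 and 36.9 in KO, and KO 1 lay under the 0.202 FPKM that 3 fragments would give there. The groups overlapped, with a log2 fold change of -0.19 (SE 0.48, 95% confidence interval -1.27 to 0.88, limma p = 0.696, adjusted p = 0.967, exact permutation p = 0.8). No difference was detectable at this depth.

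**Figure D4:**
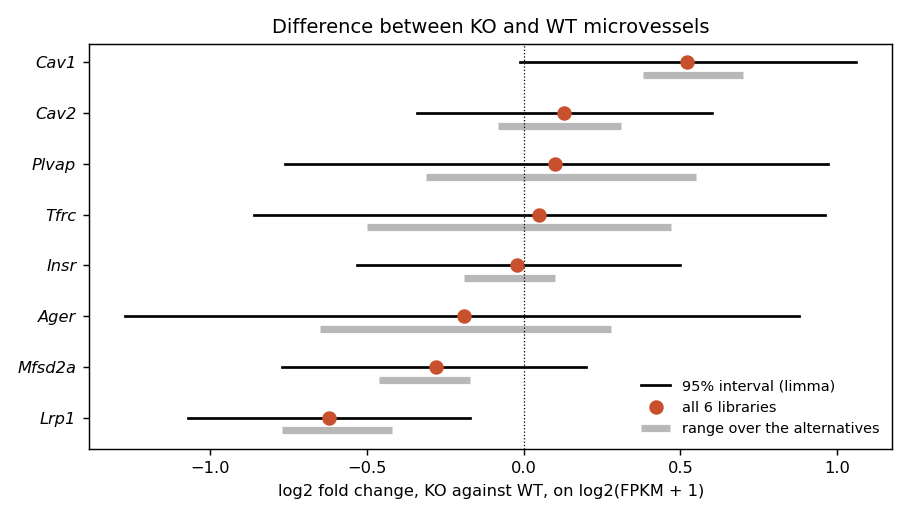
Log2 fold change of KO against WT for each of the 8 genes on log2(FPKM + 1), with 95% confidence intervals from limma. Only the interval of *Lrp1* (-1.07 to -0.17) lies on one side of 0, and that of *Cav1* runs from -0.01 to 1.06.

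Ranked by mean FPKM, the order in WT was *Lrp1*, *Cav1*, *Tfrc*, *Cav2*, *Mfsd2a*, *Plvap*, *Insr* and *Ager*. Neighbours whose library ranges did not overlap were *Cav1* and *Tfrc*, *Mfsd2a* and *Plvap* (ratio 2.68), and *Insr* and *Ager* (ratio 6.58). The other neighbours overlapped, and *Cav2* lay above *Mfsd2a* in only 1 of 3 WT libraries. In KO the order differed at the top, where *Cav1* exceeded *Lrp1* in 3 of 3 libraries with a ratio of means of 1.8 and no overlap. In WT *Lrp1* exceeded *Cav1* in 3 of 3 libraries, with a ratio of 1.23 and overlapping ranges. The ratio of *Lrp1* to *Cav1* within a library was 1.03, 1.34 and 1.40 in WT and 0.424, 0.643 and 0.637 in KO, so KO 2 fell with the other KO libraries here, unlike for *Cav2* or *Mfsd2a* against *Cav1*. Relative to the mean log2 level of the 15 endothelial markers, *Cav1* stood at 0.12, -0.10 and -0.11 in WT and at 0.76, 0.43 and 0.64 in KO, without overlap. On the same scale *Lrp1* stood at 0.17, 0.32 and 0.37 in WT and at -0.46, -0.20 and 0.00 in KO, also without overlap. The other 6 genes overlapped. The share of all tested genes without overlap on this centred scale was not computed. Before centring it was 11.1%, and *Cav1* was not among those genes.

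The genes whose profile over the 6 libraries was most like each of the 8 were sought among the 9959 that averaged 5 FPKM or more, by Pearson's r of log2(FPKM + 1), as a description. For *Cav1* they were *Ifnar2* (0.992), *Dnajb4* (0.989) and *Ccdc58* (0.987), and for *Cav2* they were *Pdlim5* (0.983), *Krr1* (0.976) and *Syncrip* (0.975). *Plvap* was most like *Nefh* (0.984), *Paxip1* (0.968) and *Psph* (0.965), and *Mfsd2a* was most like *Mgat5b* (0.998), *Icam5* (0.998) and *Bri3bp* (0.994). *Nefh*, a neurofilament chain, and *Icam5*, an adhesion protein, are known as neuronal genes, and the neuron marker sum was 402, 588 and 752 FPKM in WT and 357, 578 and 266 FPKM in KO. That sum followed the order of *Plvap* in WT but ran opposite to it in KO, and it was highest in KO 2, as *Mfsd2a* was among the KO libraries. The part of neuronal RNA in these values was not tested. *Tfrc* was most like *Smg1* (0.988), *Prpf40b* (0.986) and Gm3893 (0.982), and *Insr* was most like *Tmpo* (0.984), Gm996 (0.982) and *Rps6kb2* (0.98). *Lrp1* was most like *Crybb1* (0.994), known as a microglial gene in brain, *Klf4* (0.992) and *Tst* (0.984), and *Ager* was most like *Cyp51* (0.987), *Fam160b2* (0.983) and *Eme2* (0.978). The genes share library and depth, and each name is the best of 9959 over only 6 points.

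The wider pathway was read from 8 lists with 160 measured genes, of which 159 passed the filter. At an unadjusted limma p under 0.05, 6 of them (3.77%) were found, 5 lower and 1 higher in KO, beside 5.88% of all tested genes. No gene of any list passed an adjusted p of 0.05. All 6 had an adjusted limma p of 0.841 and KO values outside the WT range. They were picked by a low p from these same values, so that separation is no further support. With GC content and length correction only *Vldlr* of these 6 kept an unadjusted p under 0.05, while 4 genes of the lists had such a p in all. The others kept their direction, with *Rab4a* at -0.50 against -0.51 before the correction. *Lrp1* was then at -0.42, *Steap3* at -0.41, *Slc27a4* at -0.37 and *Ap2a2* at -0.33. The corrected KO and WT values of *Rab4a* and *Slc27a4*, like those of *Lrp1*, overlapped.

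The machinery of the caveola showed no gene at that level. Of 14 coat and shaping genes, 8 had negative and 6 positive log2 fold changes (median -0.05), and *Cav1* had the smallest p. The cavins, which stabilise the coat, differed between the group means by less than their SD. *Cavin1*, listed as *Ptrf*, measured 198 ± 39.7 FPKM in WT and 185 ± 51.5 FPKM in KO, and *Cavin2*, listed as *Sdpr*, measured 47.2 ± 11.3 FPKM and 47.8 ± 8.52 FPKM. *Cavin3*, listed as *Prkcdbp*, measured 87.3 ± 14.8 FPKM and 76.2 ± 15.3 FPKM. *Ehd2*, the ATPase at the neck of the caveola, measured 47.2 ± 13.7 FPKM and 47.4 ± 13 FPKM. The muscle caveolin *Cav3* was low, at 1.12 ± 0.714 FPKM in WT, and was listed at 0 in KO 3.

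Among 21 tested receptors and carriers of transcytosis, 10 had negative and 11 positive log2 fold changes (median 0.02), with *Lrp1* lower and *Vldlr* higher at an unadjusted p under 0.05, while *Lrp2* was below the filter. *Vldlr*, the very low density lipoprotein receptor, belongs to the same receptor family as *Lrp1* and measured 6.17, 4.38 and 7.11 FPKM in WT and 8.52, 9.07 and 12.4 FPKM in KO. Its 3 KO values all lay above WT, an order shown by 5.37% of all tested genes, with a log2 fold change of 0.68 (SE 0.25, limma p = 0.0224, exact permutation p = 0.1). Of all tested genes, 2.77% were higher in KO at an unadjusted limma p under 0.05. The related receptors *Lrp6* and *Lrp8* gave log2 fold changes of 0.14 (SE 0.20) and 0.05 (SE 0.23). *Igf1r* and *Igf2r*, which bind insulin-like growth factors, gave 0.02 (SE 0.19) and -0.03 (SE 0.24), and *Fcgrt*, the receptor that recycles IgG, gave -0.38 (SE 0.27).

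Clathrin coat and adaptor genes numbered 28, of which 16 had negative and 12 positive log2 fold changes (median -0.10). *Ap2a2*, an AP-2 adaptor subunit that links cargo to clathrin, measured 46.6, 50.7 and 39.9 FPKM in WT and 32.2, 29.4 and 38.6 FPKM in KO (log2 fold change -0.45, SE 0.20, limma p = 0.049, exact permutation p = 0.1), with KO 3 just below the lowest WT value. The other subunits of the adaptor gave -0.37 (SE 0.20) for *Ap2b1*, -0.27 (SE 0.21) for *Ap2s1*, -0.16 (SE 0.20) for *Ap2a1* and 0.04 (SE 0.22) for *Ap2m1*, and the clathrin heavy chain *Cltc* gave 0.09 (SE 0.20). *Fcho1*, which starts the pit, had the largest difference of the list, 12.9 ± 3.28 FPKM against 8.43 ± 5.29 FPKM (log2 fold change -0.68, SE 0.38), and gave -0.31 without KO 3 and -1.10 without KO 2. Its values of 9.22, 14.0 and 15.5 FPKM in WT and 6.92, 14.3 and 4.07 FPKM in KO moved with the neuron marker sum (402, 588 and 752 FPKM in WT, 357, 578 and 266 FPKM in KO), whose part in them was not tested. Of 34 genes of endosomal sorting and vesicle fusion, 18 were negative and 16 positive (median -0.01). *Rab4a*, a GTPase of fast recycling to the surface, measured 18.0, 21.8 and 21.7 FPKM in WT and 11.7, 16.6 and 14.3 FPKM in KO (log2 fold change -0.51, SE 0.21, limma p = 0.0359, exact permutation p = 0.1). The early and slow recycling GTPases *Rab5a* and *Rab11a* gave 0.11 (SE 0.20) and -0.15 (SE 0.20).

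Of 19 iron handling genes, 10 were negative and 9 positive (median -0.01). *Steap3*, the reductase that acts on iron released from transferrin inside the endosome, measured 36.6, 33.5 and 29.7 FPKM in WT and 26.4, 17.0 and 26.8 FPKM in KO, with a log2 fold change of -0.52 (SE 0.23, limma p = 0.0455, exact permutation p = 0.1) that was -0.31 without KO 2. KO 2, the library with the highest *Tfrc*, had the lowest *Steap3*. The related *Steap2* had the largest difference of this list, 4.55 ± 0.987 FPKM against 7.78 ± 4.29 FPKM (log2 fold change 0.56, SE 0.35), and gave 0.19 without KO 3 and 0.91 without KO 2. Its KO values of 6.89, 4.0 and 12.4 FPKM followed the order of the choroid plexus marker sum in KO, whose part in them was not tested.

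The relay behind the insulin receptor held no gene at an unadjusted p under 0.05 among 16, of which 9 were negative and 7 positive (median -0.02). *Foxo3*, a transcription factor that insulin signalling keeps out of the nucleus, had the largest difference, 8.55 ± 3.42 FPKM against 5.63 ± 1.38 FPKM (log2 fold change -0.49, but -0.22 without WT 2 and -0.31 without KO 1).

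Genes of lysolipid and docosahexaenoic acid handling divided evenly, with 7 of 14 in each direction (median -0.02). *Slc27a4*, which activates and takes up long-chain fatty acids, measured 24.2, 33.2 and 30.3 FPKM in WT and 17.0, 22.9 and 19.9 FPKM in KO, with a log2 fold change of -0.53 (SE 0.21, limma p = 0.0301, exact permutation p = 0.1). Of 16 ligands and sheddases of LRP1 and RAGE, 10 were negative and 6 positive (median -0.07), and none had an unadjusted p under 0.05. *S100a9*, a neutrophil ligand of RAGE, had the largest difference and was uneven in both groups, at 4.64, 11.8 and 7.68 FPKM in WT and 15.2, 1.75 and 0.501 FPKM in KO (log2 fold change -1.07, SE 0.72), giving -2.07 without KO 1 and -0.36 without KO 3.

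**Figure D5:**
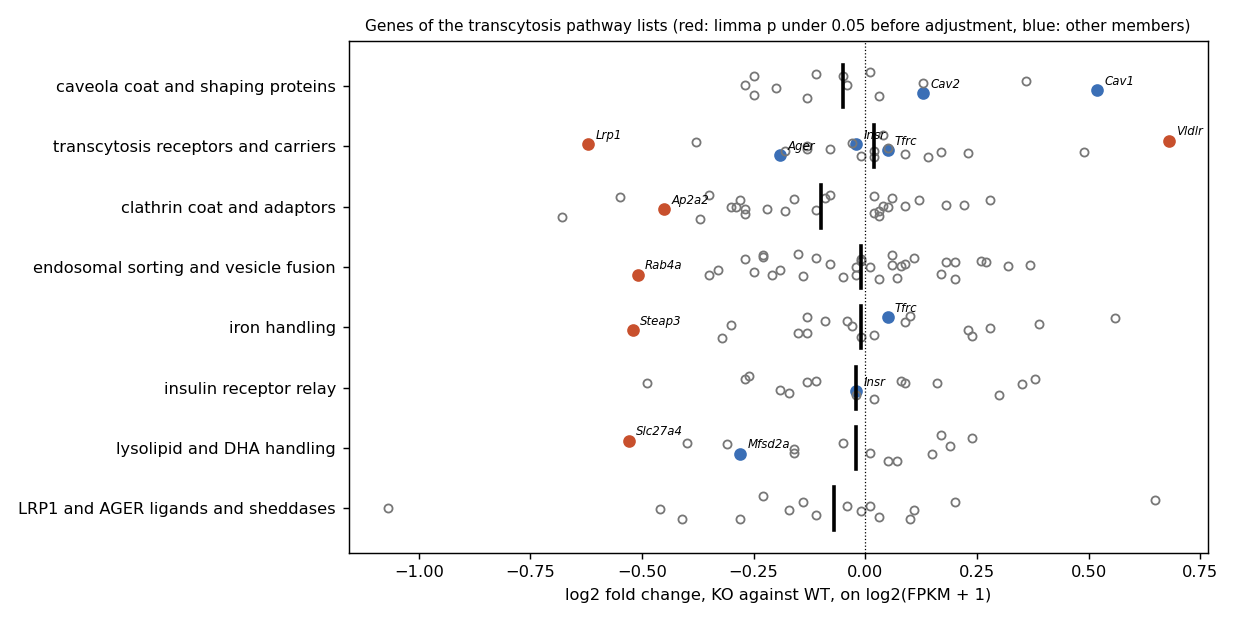
Log2 fold change of KO against WT for each tested gene of the 8 pathway lists, one row per list, with a black bar at the list median, red for an unadjusted limma p under 0.05 and blue for the other transcytosis genes; the vertical scatter within a row has no meaning. The medians lie between -0.10 and 0.02, each changing sign under at least 1 alternative. Those of the clathrin list and of the LRP1 and RAGE ligand list do so only under endothelial centring, which raises all genes alike. The 6 red genes lie on both sides of 0 (5 lower, 1 higher in KO).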

How the data were processed

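Total RNA was extracted with TRIzol from cerebral microvessels of 3 WT and 3 TEKCRIF1 KO samples, and libraries were made with a directional kit. Per the submitters' processing notes, the authors aligned reads with TopHat to mm10. Each sample's deposited file gave FPKM values per gene symbol, and the program and annotation behind them and any use of strand were not given in the sources used here. The 8 genes and the gene lists were chosen with earlier results of these data known. Values were taken as log2(FPKM + 1), genes averaging 1 FPKM or more were kept, and KO was compared with WT by limma 3.58.1 (R 4.3.3) with trended variance and Benjamini-Hochberg adjustment over 14247 genes, beside two-sided exact permutation tests of single genes. Fragments per gene were estimated from the step of low FPKM values and GENCODE M21 transcript lengths. These estimates cover counting error only. Genes named from the pathway lists were the transcytosis genes, those with an unadjusted p under 0.05 and the one with the largest absolute log2 fold change in each list, and other genes, such as family members or adaptor subunits, were added after the values were seen. The scripts were tested on simulated data. Alternatives were another pseudocount, other filters, trimmed-mean and quantile scaling, no trended variance, a replicate block, GC content and length correction (13726 genes with annotation), centring on the endothelial markers, and leaving out each library.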

Additional observations from a re-analysis of the deposited data

How the results depend on the processing

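No transcytosis gene passed an adjusted limma p of 0.05 under any of the 15 alternatives (14 for *Ager*, which the 5 FPKM filter removed). *Lrp1* lay between -0.77 and -0.42 on the log2 scale with an unadjusted p under 0.05 in 13 of 15, and *Cav1* between 0.38 and 0.70 in 5 of 15. Among the list genes named for an unadjusted p under 0.05, *Vldlr* stayed there in 13 of 15 alternatives, *Slc27a4* in 9, *Rab4a* in 8, *Steap3* in 7 and *Ap2a2* in 6, all with their direction kept. *Mfsd2a* lay between -0.46 and -0.17. The list medians all changed sign in some alternative, within -0.13 to 0.13 for caveola genes, -0.10 to 0.11 for iron handling and -0.16 to 0.13 over all lists. For the clathrin list and the LRP1 and RAGE ligand list this occurred only under endothelial centring. Their medians were then 0.02 and 0.04, below the 0.11 of all genes. GC content and length correction turned *Cav2* to -0.08 and *Tfrc* to -0.07. *Insr* became 0.0011 with trimmed-mean scaling, 0.02 with quantile normalization and 0.10 with centring on endothelial markers. Leaving out 1 library at a time gave ranges of 0.03 to 0.31 for *Cav2*, -0.31 to 0.55 for *Plvap*, -0.50 to 0.47 for *Tfrc*, -0.19 to 0.10 for *Insr* and -0.50 to 0.28 for *Ager*, and *Ager* was -0.65 with a pseudocount of 0.1. The number of transcytosis genes with an unadjusted p under 0.05 was 2 with trimmed-mean scaling, quantile normalization or endothelial centring and 0 with GC content and length correction. Of all genes, 845, 928, 761 and 680 had such a p under these settings, in that order. When libraries were left out, the transcytosis genes ran from 0 (without WT 2) to 4 (without KO 2), beside 450 and 1871 of all 14247 genes. The pathway-list genes then ran from 0 (without WT 2) to 16 of 159. Their number was 3 without trended variance, beside 795 of all genes. Over all genes, leaving out a library gave 450 to 1871 genes with an unadjusted p under 0.05, 203 to 1041 higher and 202 to 830 lower, and 0 to 4 at an adjusted p under 0.05. Endothelial centring subtracts the endothelial marker mean of each library, which averaged 6.17 in WT and 6.05 in KO on the log2 scale. It therefore raised every log2 fold change by the same amount. The median of all genes moved to 0.11, and the counts to 611 higher and 150 lower. *Cdh5*, at a log2 fold change of -1.03 before centring, is part of the marker mean, and centring without it was not tested. The cause of the other shifts was not tested. Over all tested genes, same-numbered WT and KO samples did not deviate together (r of 0.04, 0.03 and 0). The sample titles do not say whether such samples shared a litter or a preparation. The columns of the deposited files carry numbers other than those of the sample titles used here. The replicate block cannot move a fold change in this balanced design (*Lrp1* -0.62), and 1 of the 8 genes and 871 of all genes had an unadjusted p under 0.05 with it. The depth of 6400000 to 11700000 fragments limits *Ager* most.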
